A study of Rattus norvegicus with 24 samples.

Results

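ENSRNOG00000036677, ENSRNOG00000010149, ENSRNOG00000037673 and ENSRNOG00000015625 are 4 of the 32662 Ensembl gene IDs counted here in poly-A RNA of rat brain. They were chosen by ID because their counts differed between 2 bred rat lines in the dorsal raphe of these same libraries, so that difference is given as a description and supports nothing. All 4 passed the low count filter in both regions. The choice was made with amygdala results also known, and IDs that differed in both regions may have been set aside, so the amygdala values may not be independent of it. In the amygdala, ENSRNOG00000036677 and ENSRNOG00000015625 again had lower means, and ENSRNOG00000010149 and ENSRNOG00000037673 higher means, in High Responder than in Low Responder rats. There 0 of the 4 passed the adjusted threshold, against 0.0210% of 14265 IDs tested. In the fit over both lines, 3 of the 4 were called lower in the amygdala than in the dorsal raphe, against 34.0% of 14977 IDs. ENSRNOG00000037673 was also 2.20-fold higher in the dorsal raphe libraries with the later library numbers of each line, and in the amygdala it was high in 2 of the 6 Low Responder libraries.

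The libraries came from 60-day-old rats, with 6 for each of High Responder amygdala, Low Responder amygdala, High Responder dorsal raphe and Low Responder dorsal raphe, 24 in all. The High Responder and Low Responder lines were bred for opposite responses to novelty, and the labels name no treatment, genotype or sex. There is 1 line for each response, so line and behavioural response cannot be told apart. No label says that each library is a separate rat or that the regions came from the same rats, so the p-values refer to library-to-library spread, part of which may be technical.

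As background, rats bred as High Responders explore a new environment more than Low Responders, which show more anxiety-like behaviour. The dorsal raphe is a midbrain nucleus with many of the serotonin neurons that project to the forebrain, and the amygdala, a set of forebrain nuclei known for its role in fear, receives such projections. Lines that are bred apart come to carry different variants at many places in the genome, by selection and by drift, and such variants can alter the transcript level of a gene in 1 tissue or in several. The count tables hold IDs without symbols, and 0 of the IDs matched the RefSeq gene table of the assembly GRCr8. That table lists no Ensembl IDs, so the lack of a match says nothing about the IDs themselves. The 4 IDs are therefore given no name, function, position or sequence, and the labelled regions were not checked against marker genes. Without transcript lengths, levels are compared between libraries for 1 ID at a time and never between IDs.

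Library totals ranged from 9232983 to 20194601 counts, and levels are given as CPM, the count as a rate per library total after scaling. Library numbers in the file headers run in separate blocks within each group. The first block, called earlier here, holds 4 of the 6 libraries of each group except High Responder dorsal raphe, where it holds 3. What the numbers stand for is not stated in the labels. In the dorsal raphe 48.1% of 14390 IDs differed between later and earlier libraries within the lines (edgeR adjusted p under 0.05), so each line difference below is also given among the earlier and among the later libraries. Earlier and later hold only within a line: all 12 Low Responder libraries have lower numbers than all 12 High Responder libraries, so line and library number cannot be told apart, and this split does not separate them.

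ENSRNOG00000036677 was chosen with lower values in High Responder rats. In the dorsal raphe its 6 High Responder libraries ran from 2.73 to 3.86 CPM with a median of 3.80 CPM, against 5.27 to 7.13 CPM with a median of 6.22 CPM in the 6 Low Responder libraries. The lines did not overlap there, and the values rested on 32 to 75 counts per High Responder library and 50 to 93 per Low Responder library. It averaged 3.59 ± 0.441 CPM in the High Responder libraries against 6.18 ± 0.708 CPM in the Low Responder ones (SD, n = 6 each), and the log2 fold change came to -0.79 (SE 0.12). In the amygdala the High Responder libraries ran from 1.68 to 3.72 CPM with a median of 2.56 CPM, and the Low Responder libraries from 2.18 to 5.78 CPM with a median of 4.21 CPM. There the ranges overlapped, with 4 High Responder and 2 Low Responder libraries inside the range of the other line. The amygdala log2 fold change was -0.67 (SE 0.26, edgeR adjusted p = 0.509, unadjusted p = 0.0236).

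The amygdala log2 fold change of ENSRNOG00000036677 was negative in the earlier libraries and not in the later ones. The difference between these sets was not tested. In the earlier libraries the means were 2.41 ± 0.911 CPM for High Responder against 4.99 ± 0.929 CPM for Low Responder libraries (SD, n = 4 each). The log2 fold change was -1.06 (SE 0.26, edgeR adjusted p = 0.982). In the later libraries the order of the means was the opposite, but the values of the lines interleaved. They were 2.69 and 3.72 CPM in the 2 High Responder libraries against 2.18 and 3.17 CPM in the 2 Low Responder libraries. The log2 fold change there was 0.28 (SE 0.32, edgeR adjusted p = 0.832), within its SE of 0. The dorsal raphe values were -0.77 (SE 0.15) among earlier and -0.78 (SE 0.27) among later libraries.

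ENSRNOG00000015625 had the smallest line difference of the 4 and the least spread between libraries. In the dorsal raphe it ran from 32.2 to 36.2 CPM with a median of 35.1 CPM in High Responder libraries, against 39.2 to 51.1 CPM with a median of 47.7 CPM in Low Responder libraries. The lines did not overlap, and the lowest Low Responder value lay close above the highest High Responder value. Group means were 34.7 ± 1.71 CPM for High Responder against 46.2 ± 4.78 CPM for Low Responder libraries (SD, n = 6 each), with -0.42 as the log2 fold change (SE 0.07). In the amygdala the High Responder libraries ran from 28.7 to 35.4 CPM with a median of 32.2 CPM, and the Low Responder libraries from 28.6 to 45.5 CPM with a median of 35.1 CPM. All 6 High Responder libraries lay inside the Low Responder range. The amygdala log2 fold change was -0.16 (SE 0.10, edgeR adjusted p = 0.716, unadjusted p = 0.124), and it was -0.22 (SE 0.14) in the earlier and -0.07 (SE 0.11) in the later libraries. The matching dorsal raphe values were -0.34 (SE 0.10) and -0.54 (SE 0.11).

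ENSRNOG00000010149 was chosen with higher values in High Responder rats. Its High Responder dorsal raphe libraries ran from 8.62 to 16.8 CPM with a median of 13.6 CPM, against 4.69 to 7.36 CPM with a median of 6.26 CPM in Low Responder libraries, with no overlap. Group means were 12.9 ± 2.82 CPM for High Responder against 6.04 ± 0.979 CPM for Low Responder libraries (SD, n = 6 each), with 1.08 as the log2 fold change (SE 0.17). This value was 1.26 (SE 0.15) among the earlier and 0.83 (SE 0.33) among the later libraries. The 3 earlier High Responder libraries stood at 13.4 to 13.9 CPM, on 155 to 274 counts. The lowest and the highest value of the group were both from later libraries. Counting error adds to the spread at such counts, and the spreads of the earlier and later libraries were not tested against each other.

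In the amygdala ENSRNOG00000010149 ran from 2.52 to 9.98 CPM with a median of 8.05 CPM in High Responder libraries, against 2.27 to 6.97 CPM with a median of 3.20 CPM in Low Responder libraries. Library 1 of the Low Responder group was its highest, and the other 5 lay at or below 3.70 CPM. High Responder libraries 2 and 4, at 4.75 and 2.52 CPM, lay inside the Low Responder range. The log2 fold change was 0.97 (SE 0.32, edgeR adjusted p = 0.433, unadjusted p = 0.00914). It was 0.68 (SE 0.43, edgeR adjusted p = 0.984) in the earlier libraries. In the later libraries it was 1.48 (SE 0.23, edgeR adjusted p = 0.0414), with 8.54 and 9.98 CPM in the 2 High Responder libraries against 2.98 and 3.70 CPM in the 2 Low Responder libraries. That fit of 2 against 2 libraries called 61 of 14284 IDs, against 0 of 14364 in the earlier libraries and 3 of 14265 in all.

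**Figure D1:**
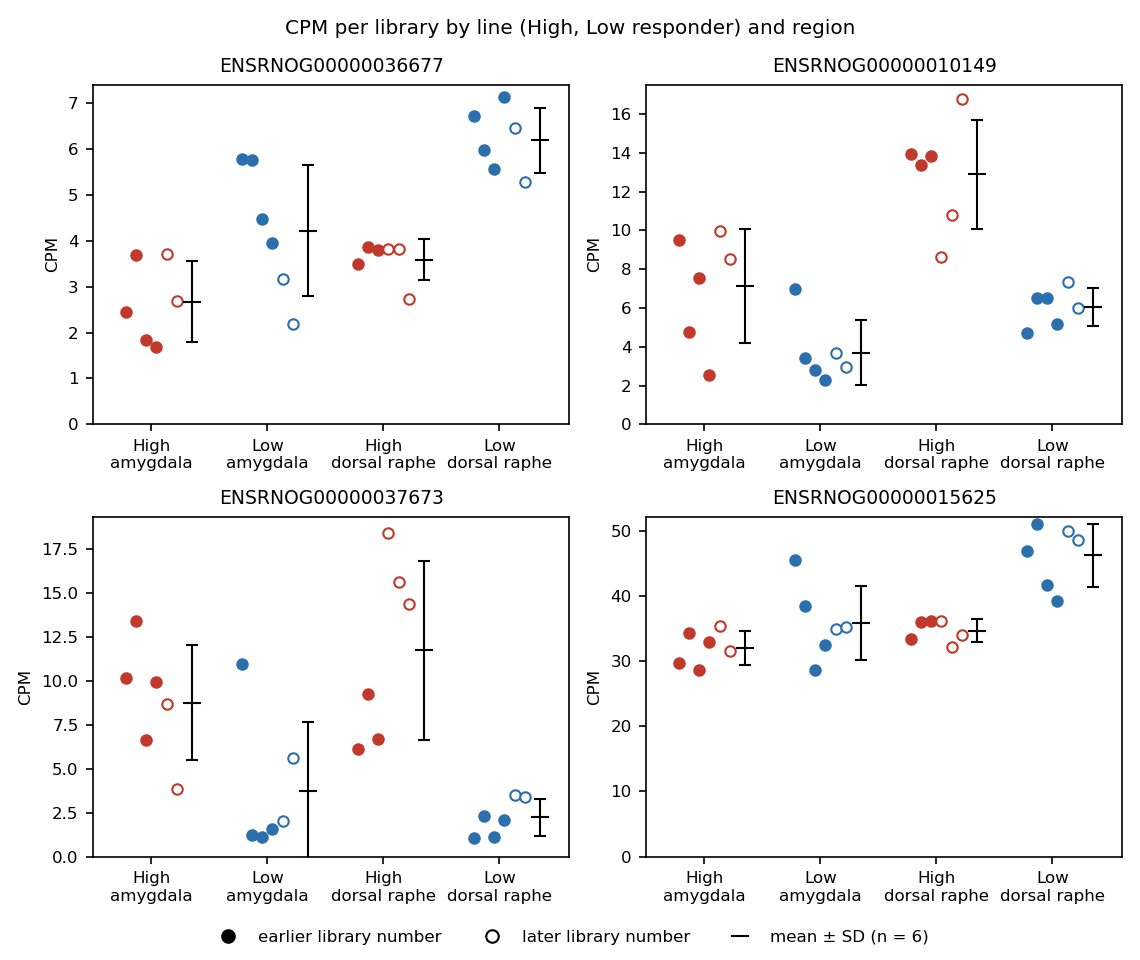
Each panel shows 1 ID, with CPM on the vertical axis and the 4 groups on the horizontal axis. Points are libraries (filled for earlier and open for later library numbers), and bars are the mean ± SD of 6 libraries; the lower bar of ENSRNOG00000037673 in Low Responder amygdala runs below 0 and ends at the axis. The lines are apart in the dorsal raphe, where they chose the IDs, and overlap in the amygdala for all 4 IDs.

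ENSRNOG00000037673 had the largest line difference and the widest spread. Its High Responder dorsal raphe libraries ran from 6.10 to 18.4 CPM with a median of 11.8 CPM, against 1.08 to 3.51 CPM with a median of 2.19 CPM in Low Responder libraries. The lines did not overlap, and the Low Responder values rested on 13 to 43 counts per library against 68 to 333 in High Responder libraries. High Responder libraries averaged 11.7 ± 5.10 CPM against 2.25 ± 1.05 CPM for Low Responder libraries (SD, n = 6 each), with 2.39 as the log2 fold change (SE 0.37). The coefficient of variation between libraries was 43.4% in High Responder and 46.8% in Low Responder dorsal raphe, where the medians over the 14390 IDs tested were 15.9% and 16.8%. For ENSRNOG00000015625 it was 4.94% in High Responder and 10.3% in Low Responder dorsal raphe. Counting error adds more to this measure at low counts, so it is not free of level.

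In the amygdala ENSRNOG00000037673 ran from 3.84 to 13.4 CPM with a median of 9.31 CPM in High Responder libraries. The Low Responder libraries 1 to 6 stood at 10.96, 1.25, 1.14, 1.59, 2.03 and 5.59 CPM. Libraries 1 and 6 thus lay inside the High Responder range and the other 4 lay below it, which gave a coefficient of variation of 104% in that group. High Responder libraries averaged 8.77 ± 3.27 CPM against 3.76 ± 3.90 CPM for Low Responder libraries (SD, n = 6 each), and the log2 fold change was 1.22 (SE 0.49, edgeR adjusted p = 0.524, unadjusted p = 0.0263). Without Low Responder library 1 it was 1.90 (SE 0.41, edgeR adjusted p = 0.219). It was 1.42 (SE 0.64) in the earlier and 0.70 (SE 0.48) in the later libraries, against 2.16 (SE 0.28) and 2.21 (SE 0.21) in the dorsal raphe.

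Low Responder amygdala library 1 held the highest Low Responder amygdala value for each of the 4 IDs. Leaving it out moved the amygdala log2 fold change to -0.55 for ENSRNOG00000036677 and -0.08 for ENSRNOG00000015625, and to 1.24 for ENSRNOG00000010149. None of the 4 passed the threshold without it. The plot of amygdala differences without each library shows it as the largest shift for 3 of the 4 IDs, ENSRNOG00000036677 being the exception.

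**Figure D2:**
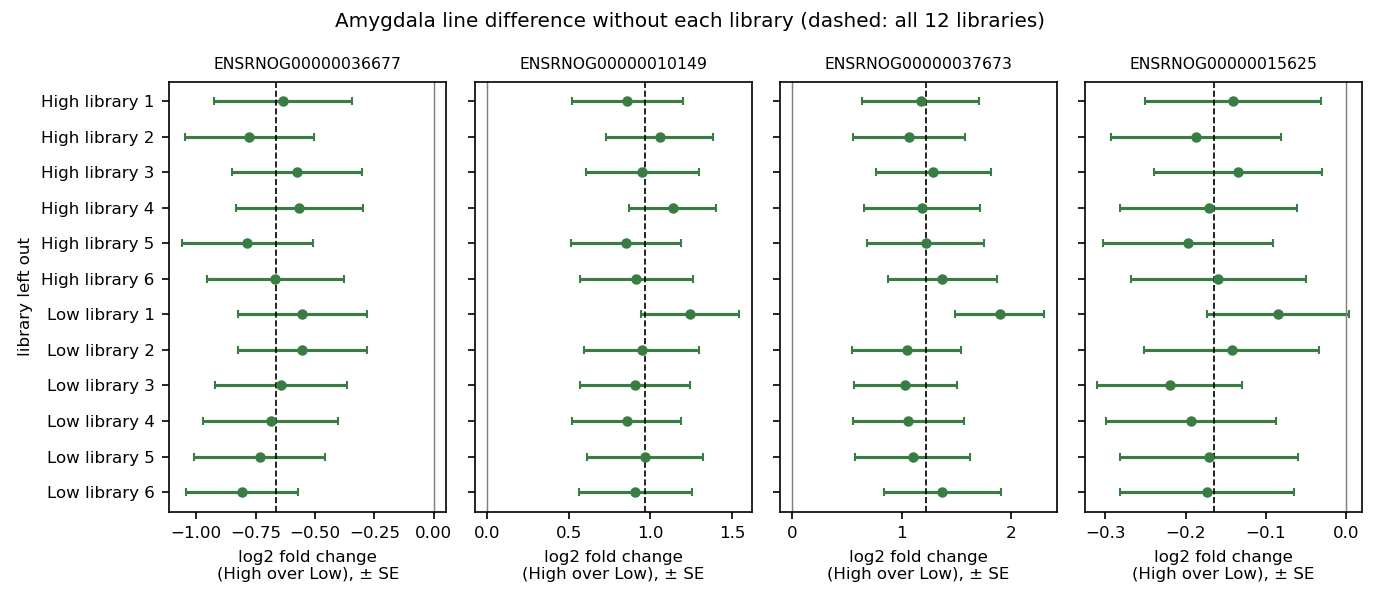
Each panel shows 1 ID, with the amygdala log2 fold change (High Responder over Low Responder) ± SE on the horizontal axis and the library left out on the vertical axis. The dashed line is the value over all 12 libraries. Without Low Responder library 1 the value of ENSRNOG00000037673 moves to 1.90.

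Read together, the amygdala gave 0 of 4 IDs past the adjusted threshold with edgeR, where 0.0210% of 14265 IDs passed. With DESeq2 it gave 0 of 4, where 82 of 14265 IDs passed. An unadjusted p under 0.05 was found for 3 of the 4 with edgeR, against 8.34% of all IDs tested. The lines overlapped for all 4, and 0.701% of IDs had no overlap. The sizes of the 4 log2 fold changes, 0.16 to 1.22 without regard to sign, were above the median size over all IDs tested, 0.09. Except for ENSRNOG00000015625, the biological coefficient of variation that edgeR estimated was 28.6% to 59.1%, against a median of 13.5%. Wider spread gives larger sizes by itself, so this comparison is a description. The dorsal raphe contrast that chose the IDs called 3 of the 4, with 0.0625% of IDs called and 5.05% at an unadjusted p under 0.05; each of the 3 calls was lost in at least 10 of the 12 fits without 1 library. ENSRNOG00000015625 ranked twelfth by p there and was not called (edgeR adjusted p = 0.0825), but it was with a term for later libraries in the edgeR fit (adjusted p = 0.0417). For the same contrast DESeq2 called all 4, among 39 of 14390 IDs called. All 4 had lines that did not overlap in the dorsal raphe, as did 0.528% of IDs.

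The line difference in the amygdala minus that in the dorsal raphe contains the difference that chose the IDs and is given without a test; over all IDs 0.00668% were called in it. It was 0.12 (SE 0.30) for ENSRNOG00000036677, -0.13 (SE 0.38) for ENSRNOG00000010149, -1.17 (SE 0.67) for ENSRNOG00000037673 and 0.25 (SE 0.13) for ENSRNOG00000015625 on the log2 scale. For ENSRNOG00000037673 it was -0.49 without Low Responder amygdala library 1.

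**Figure D3:**
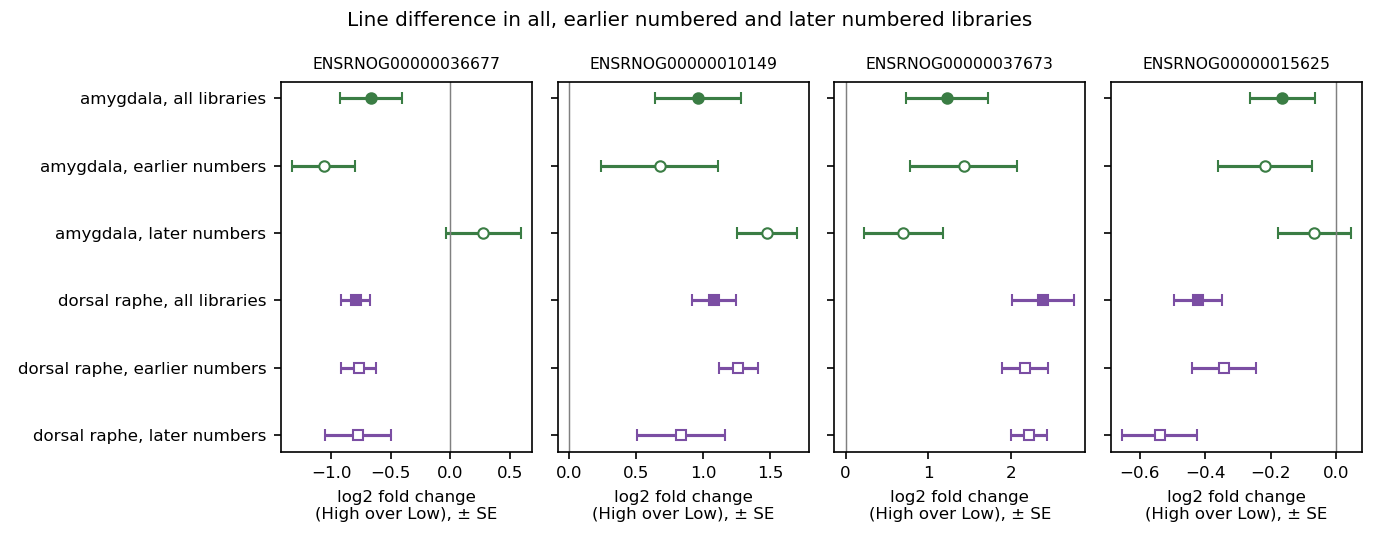
Each panel shows 1 ID, with the log2 fold change (High Responder over Low Responder) ± SE on the horizontal axis; rows are the amygdala (circles) and the dorsal raphe (squares), each for all libraries (filled), earlier and later library numbers (open). For ENSRNOG00000036677 the amygdala value is -1.06 in earlier and 0.28 in later libraries, and the other 3 IDs keep their sign in all 6 rows. The dorsal raphe rows show the contrast that chose the IDs.

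The regions were compared over both lines. Of the 4 IDs, 3 passed the threshold, all lower in the amygdala, where 65.8% of 14977 IDs passed in either direction and 34.0% were lower. ENSRNOG00000010149 fell to 5.42 ± 2.90 CPM in the amygdala, against 9.46 ± 4.11 CPM in the dorsal raphe (SD, n = 12 each, both lines together), with -0.78 as the log2 fold change (SE 0.19; adjusted p by edgeR, 0.000931). Its dorsal raphe mean was 1.80 times the amygdala mean in High Responder and 1.64 times in Low Responder rats. In bulk tissue, fewer cells of a type and less RNA per cell cannot be told apart.

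ENSRNOG00000036677 was lower in the amygdala, with -0.49 as the log2 fold change (SE 0.15; adjusted p by edgeR, 0.00529), at 3.45 ± 1.39 CPM against 4.88 ± 1.47 CPM in the dorsal raphe (SD, n = 12 each). ENSRNOG00000015625 was lower there too, with a value of -0.24 (SE 0.06, edgeR adjusted p = 0.0019), at 34.0 ± 4.68 CPM against 40.5 ± 6.93 CPM in the dorsal raphe. Its dorsal raphe mean was 1.08 times the amygdala mean in High Responder and 1.29 times in Low Responder rats. These sizes lie on either side of the median over all IDs, 0.36 without regard to sign. The ranges of the regions overlapped for all 4 IDs, and 3 to 5 of the 12 dorsal raphe libraries stood above every amygdala library.

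ENSRNOG00000037673 did not pass between regions, with 0.16 as the log2 fold change (SE 0.33; adjusted p by edgeR, 0.683). Over both lines it averaged 6.26 ± 4.31 CPM for amygdala against 7.0 ± 6.1 CPM for dorsal raphe libraries (SD, n = 12 each), so these means and the fitted value, which averages the lines on the log scale, point opposite ways. The dorsal raphe mean was 1.34 times the amygdala mean in High Responder and 0.597 times in Low Responder rats. The sign of the region value turned to -0.18 without Low Responder amygdala library 1. In the later libraries alone it was -0.61 (SE 0.32, edgeR adjusted p = 0.127), and in the earlier ones 0.82 (SE 0.42, edgeR adjusted p = 0.107).

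By group mean, ENSRNOG00000036677 and ENSRNOG00000015625 shared 1 order, from low to high: High Responder amygdala, High Responder dorsal raphe, Low Responder amygdala and Low Responder dorsal raphe. For ENSRNOG00000010149 the order from low to high was Low Responder amygdala, Low Responder dorsal raphe, High Responder amygdala and High Responder dorsal raphe. ENSRNOG00000037673 had the same order as that with both Low Responder groups exchanged. Neighbouring groups in each of these orders overlapped in their ranges for all 4 IDs.

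Of the 4 IDs, 1 differed with the library number in the dorsal raphe. ENSRNOG00000037673 stood at 14.4, 15.6 and 18.4 CPM in the 3 later High Responder libraries, against 6.10, 6.67 and 9.27 CPM in the 3 earlier ones. In Low Responder dorsal raphe it stood at 3.37 and 3.51 CPM in the 2 later libraries, against 1.08 to 2.32 CPM in the 4 earlier ones. Every later library lay above every earlier one within each line, as for 9.47% of the IDs tested. The log2 fold change of later over earlier libraries, with line in the fit, was 1.14 (SE 0.18, edgeR adjusted p = 0.0023), and it passed without any 1 of the 12 libraries. Among all IDs 48.1% passed and 24.3% were higher in later libraries. With the library number in the fit, the biological coefficient of variation that edgeR estimated for this ID was 17.1%, against 41.6% in the fit of line alone, and the line difference was 2.18 (SE 0.19).

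The other 3 IDs did not pass with library number in the dorsal raphe. Their log2 fold changes of later over earlier libraries were -0.09 (SE 0.13, edgeR adjusted p = 0.591) for ENSRNOG00000036677, 0.01 (SE 0.17, edgeR adjusted p = 0.951) for ENSRNOG00000010149 and 0.07 (SE 0.07, edgeR adjusted p = 0.452) for ENSRNOG00000015625. In the amygdala 0 of the 4 IDs and 0 of 14265 IDs passed by edgeR, where 545 had an unadjusted p under 0.05 (3.82%), and DESeq2 called 2 of all IDs (0.0140%). The amygdala value of ENSRNOG00000037673 was -0.32 (SE 0.55, edgeR adjusted p = 0.973).

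The IDs whose log2 CPM was most like that of each of the 4 were ranked by Pearson's r over the 24 libraries, among 14243 IDs with a mean of at least 1 CPM. These are descriptions over libraries that share the line contrast, the regions and the depth. For ENSRNOG00000036677 the first 3 were ENSRNOG00000016647 (r = 0.85), ENSRNOG00000020704 (r = 0.81) and ENSRNOG00000021318 (r = 0.75). For ENSRNOG00000010149 they were ENSRNOG00000053615 (r = 0.79), ENSRNOG00000018951 (r = 0.78) and ENSRNOG00000007012 (r = 0.77). For ENSRNOG00000015625 they were ENSRNOG00000015941 (r = 0.81), ENSRNOG00000038600 (r = 0.78) and ENSRNOG00000009440 (r = 0.78). For ENSRNOG00000037673 the first was ENSRNOG00000061943, followed by ENSRNOG00000015609 (r = 0.79) and ENSRNOG00000001845 (r = 0.79). With region means taken off, ENSRNOG00000016647 and ENSRNOG00000061943 stayed first for ENSRNOG00000036677 and ENSRNOG00000037673. For ENSRNOG00000010149 the first was then ENSRNOG00000061943 (r = 0.71), and for ENSRNOG00000015625 it was ENSRNOG00000056946 (r = 0.76). The mean of each of the 4 groups was then taken off, which removes both line and region. For the IDs ranked first before any means were taken off, r was then 0.62 for ENSRNOG00000036677 with ENSRNOG00000016647. It was 0.36 for ENSRNOG00000010149 with ENSRNOG00000053615 and 0.47 for ENSRNOG00000015625 with ENSRNOG00000015941. For ENSRNOG00000037673 it was 0.64 with the second, ENSRNOG00000015609, and the first is described within sets of libraries. For the IDs first only with region means off, it was 0.24 for ENSRNOG00000010149 with ENSRNOG00000061943 and 0.62 for ENSRNOG00000015625 with ENSRNOG00000056946. ENSRNOG00000016647 was also lower in High Responder libraries by value, with a log2 fold change of -0.35 for amygdala and -0.43 for dorsal raphe, while that of ENSRNOG00000053615 was 0.25 for amygdala and 0.33 for dorsal raphe.

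ENSRNOG00000061943 fell into 2 sets of libraries, with a wide gap between them. It stood between 2.97 and 13.2 CPM in 14 libraries, the 12 High Responder libraries and Low Responder amygdala libraries 1 and 6, and at 0 to 0.245 CPM, at most 3 counts, in the other 10 Low Responder libraries. In the same 14 libraries ENSRNOG00000037673 stood between 3.84 and 18.4 CPM, and in the same 10 between 1.08 and 3.51 CPM, so its values did not overlap between the sets but left no such gap. In Low Responder amygdala libraries 1 and 6 ENSRNOG00000061943 stood at 7.56 and 3.49 CPM, and ENSRNOG00000037673 at 10.96 and 5.59 CPM. Pearson's r of these 2 IDs is therefore given within the sets only, 0.76 over the 14 libraries and 0.41 over the 10. Within High Responder dorsal raphe, both IDs were higher in the 3 later libraries than in the 3 earlier ones. Reads that match near-identical copies, or overlapping genes, could be split between IDs by the counting, and with no sequence for either ID this was not tested.

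**Figure D4:**
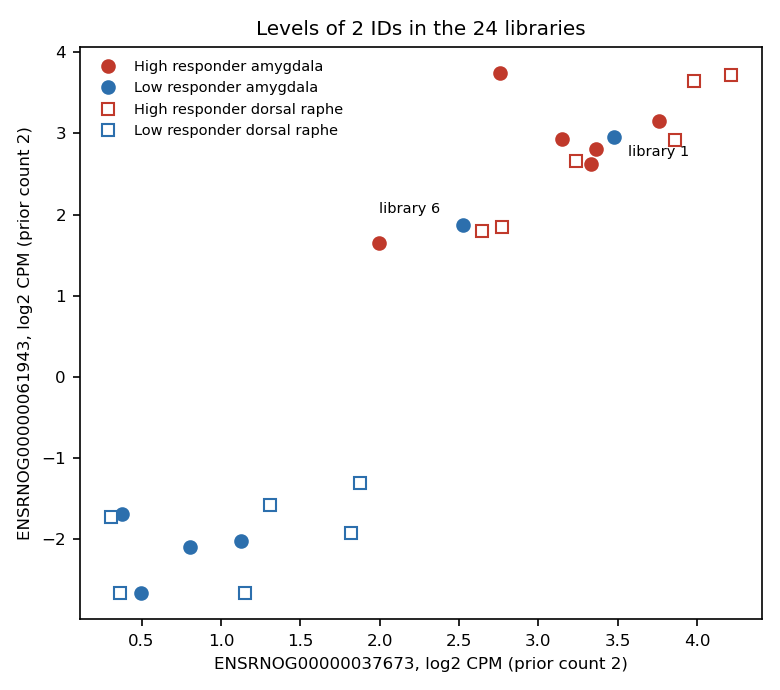
Each point is 1 of the 24 libraries, with log2 CPM (prior count 2) of ENSRNOG00000037673 on the horizontal and of ENSRNOG00000061943 on the vertical axis; colour gives the line and shape the region. The libraries fall into a set of 14 and a set of 10, and Low Responder amygdala libraries 1 and 6 lie with the High Responder libraries.

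How far the 4 IDs varied together between libraries differed by pair. Counting error at low counts pulls r toward 0, so a low r does not show that IDs vary separately. With the mean of each of the 4 groups taken off, Pearson's r between pairs of the 4 over the 24 libraries ran from -0.05, for ENSRNOG00000036677 with ENSRNOG00000037673, to 0.53, for ENSRNOG00000037673 with ENSRNOG00000015625. For ENSRNOG00000036677 with ENSRNOG00000015625, the pair with lower values in High Responder dorsal raphe, it was 0.33. For ENSRNOG00000010149 with ENSRNOG00000037673, the pair with higher values there, it was 0.16.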

How the data were processed

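The authors deposited 1 table of raw read counts per library, whole numbers for 32662 Ensembl gene IDs, with 0 lines that name no gene. Extraction used a Qiagen miRNeasy kit and the libraries were poly-A RNA libraries, per the labels' protocols. Trimming and alignment tools named are Trim Galore and STAR, and the build rn6, per the submitters' processing notes; versions, counting program, annotation and strand setting are not given in the sources used here. Reads shared by near-identical, overlapping or antisense genes could therefore not be told apart.

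The 4 IDs, the lists and the tests were chosen with earlier results of these data known. Counts were tested over all IDs passing filterByExpr with edgeR 4.0.16 in R 4.3.3 (TMM, glmQLFit, glmQLFTest), and called at p under 0.05 after Benjamini-Hochberg adjustment. SEs were obtained from the F statistic and the log2 fold change. Line was tested within each region on 12 libraries, region on all 24 as 4 groups, and library number within a region with line in the fit. CPM values were computed with TMM factors over 24 libraries. The code was tested on simulated data. Named beside the 4 IDs were, for each, the 3 most similar IDs by Pearson's r, with and without region means. The planned marker lists and neighbouring genes could not be used without symbols or positions. No libraries were near-duplicates: the lowest chi-square between libraries of a group was 3.46 per degree of freedom.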

Additional observations from a re-analysis of the deposited data

Results flagged for a closer look

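The 4 IDs in the 4 groups gave 16 sets of 6 values, and in 2 of them a single library lay far outside the rest, a distance that chance gives in about 1 in 20 sets. For ENSRNOG00000036677 this was High Responder dorsal raphe library 6 with 2.73 CPM (32 counts), below the next lowest of its group at 3.50 CPM (39 counts). Counting error is large at such counts, and its part in the distance was not tested. For ENSRNOG00000010149 it was Low Responder amygdala library 1 with 6.97 CPM, above the next highest of its group at 3.70 CPM.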

How the results depend on the processing

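The number of IDs called between the lines in the dorsal raphe, 9 with all libraries, was 39 with DESeq2, 16 in the earlier and 0 in the later libraries (237 there at an unadjusted p under 0.05), and 3 to 12 without 1 library (3 when High Responder 1, 2, 3, 5 or 6 or Low Responder 1, 2 or 4 was left out, and 5 when Low Responder 3 was). The call of the 3 chosen IDs that passed was kept in 1 of 12 such fits for ENSRNOG00000036677 and ENSRNOG00000037673 and in 2 of 12 for ENSRNOG00000010149, with log2 fold changes of -0.83 to -0.73, 2.22 to 2.58 and 0.99 to 1.19. ENSRNOG00000036677 was also not called with no low count filter (edgeR adjusted p = 0.108). In the amygdala the number, 3 with all libraries, was 1 with RLE and with no low count filter, 82 with DESeq2, 0 in the earlier (705 at an unadjusted p under 0.05) and 61 in the later libraries, and 1 to 27 without 1 library (27 when High Responder 2 was left out, 13 when Low Responder 3 was, and 1 when High Responder 1, 4, 5 or 6 or Low Responder 1 or 2 was). In the later amygdala libraries alone, 2 against 2, ENSRNOG00000036677 turned to 0.28 and ENSRNOG00000010149 passed at 1.48. The region value of ENSRNOG00000037673 turned to -0.61 in the later libraries and ran from -0.18 to 0.27 without 1 library. The value of ENSRNOG00000010149 with library number in the dorsal raphe turned to -0.0017 with no low count filter and ran from -0.12 to 0.13 without 1 library. The line difference by region called 2 IDs in the earlier and 0 in the later libraries (534 at an unadjusted p under 0.05) against 1 in all. It was -0.29 in the earlier and 1.04 in the later libraries for ENSRNOG00000036677, and in the later libraries 0.64 for ENSRNOG00000010149 and 0.47 for ENSRNOG00000015625. DESeq2, added after the data were seen, called 2 IDs with library number in the amygdala. The causes of these shifts were not tested; the earlier and later sets hold fewer libraries.

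Equal replicate numbers in the labels, which are not the library numbers of the file headers, were checked for pairing. Within each group they rise with the library numbers, so equal numbers mostly fall in the same set, earlier or later. Neither the correlations below nor the fit with the replicate number can therefore tell pairing from library number. The deviations of equally numbered libraries from their group means correlated from -0.56 to 0.69 between the lines in the dorsal raphe and from -0.37 to 0.62 in the amygdala. Best agreement with the own number was found for 2 of 6 libraries in each. Between the regions, the correlations ran from -0.32 to 0.19 in High Responder rats, with best agreement for 1 of 6. In Low Responder rats they ran from -0.09 to 0.15, with best agreement for 0 of 6. The numbers were therefore not taken as pairs. With the replicate number as a block, 5 IDs were called in the dorsal raphe; the calls of ENSRNOG00000036677 (edgeR adjusted p = 0.247) and ENSRNOG00000010149 (adjusted p = 0.225) were lost at log2 fold changes of -0.79 and 1.07, and that of ENSRNOG00000037673 was not. The region value of ENSRNOG00000037673 was -0.0061 with the block.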
